A study of Mus musculus with 8 samples.

Results

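The mitochondrial protein import machinery was followed through 35 nuclear genes, chosen by symbol among the 49315 gene IDs counted in femoral shaft bone: the subunits of the outer and inner membrane translocases, the chaperones of the intermembrane space, the sorting complex of the outer membrane, the import motor and the presequence peptidase. All 35 were found, and all 35 passed the filter on low counts. The libraries came from male C57BL6 mice aged 24 weeks, 4 Girk3-/- (KO, the gene listed as Kcnj9) and 4 wild type (WT). Girk3 is a subunit of potassium channels opened by G proteins. The labels give neither the deleted part of the gene nor whether the deletion was limited to a cell type. Bone ends were removed and marrow was washed out before RNA was extracted, and no pooling of mice is mentioned.

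Most mitochondrial proteins are made in the cytosol and imported. The TOM complex of the outer membrane recognises them and passes them through its pore. From there the TIM23 complex and its motor bring proteins with a cleavable presequence into the matrix, the TIM22 complex inserts carriers into the inner membrane, the small TIM chaperones escort hydrophobic proteins across the intermembrane space, the MIA pathway traps small cysteine-rich proteins there by oxidation, and the SAM complex builds barrel proteins into the outer membrane. Bone-forming cells and muscle fibres both rely on this route to renew their respiratory chain.

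Import genes were mostly higher in KO bone, the small subunits by a larger median than the pores and receptors, yet no member passed the test over all genes. The medians of these classes differed by 0.23 in log2 fold change. That difference was 0.12 with the exon length trend removed and 0.48 with a muscle score as a covariate. Of the 35 members, 33 had a positive log2 fold change (KO over WT) and 2 a negative one, where 48.6% of all 17450 genes tested were positive and 51.4% negative. Their median log2 fold change was 0.39, against -0.01 over all genes tested. The direction of 4 members depended on scaling, since Tomm34, Mtx1, Timm44 and Grpel2 were slightly negative when library totals were used without TMM scaling, which moved the median of all genes to -0.11 and left 29 members positive. At an adjusted p under 0.05 in edgeR's quasi-likelihood test, 0 members were called, and 0.0115% of all genes were. At an unadjusted p under 0.05, 23 members were higher, where 9.59% of all genes were, and 0 were lower, where 8.59% of all genes were. DESeq2 called 10 members higher (3.90% of all genes) and 0 lower (2.55%), and limma-voom 6 higher (2.41%) and 0 lower (1.63%). Without a filter on low counts edgeR called 3 members higher, and 0.171% of all genes. In 18 members every KO library lay above every WT library, which held for 7.33% of all genes, and in 0 members did the reverse hold, where it held for 5.78%.

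The depth was 30937465 to 32348592 counts per KO library and 30087749 to 36553713 per WT library. Kcnj9 itself had 0, 8, 4 and 7 counts in KO replicates 1 to 4, against 7, 6, 6 and 23 counts in WT replicates 1 to 4, too few to check the genotypes. All 12 bone markers, among them Col1a1, Bglap and Dmp1, were detected in every library. Of these 12, 2 were at higher and 10 at lower mean levels in KO (median log2 fold change -0.25), with 0 called by edgeR, and their summed level ranged from 10550 to 18891 CPM in KO and from 9674 to 22423 CPM in WT. Skeletal muscle markers, also all detected (14 of 14), took 11.4, 11.5, 13.6 and 15.3% of the counts in KO replicates 1 to 4, against 11.5, 12.3, 12.7 and 8.14% in WT replicates 1 to 4 (two-sided exact permutation p = 0.343). In bulk tissue, fewer cells of a type and less RNA per cell cannot be told apart. Mitochondrially encoded RNA took 7.36, 5.84, 7.09 and 11.6% in KO replicates 1 to 4, against 11.4, 11.9, 10.7 and 8.46% in WT replicates 1 to 4 (exact permutation p = 0.114). On the first principal component over all genes, KO replicate 4 was at -60.5 and WT replicate 4 at 53.5, with the other 6 libraries between -20.1 and 14.7.

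**Figure D1:**
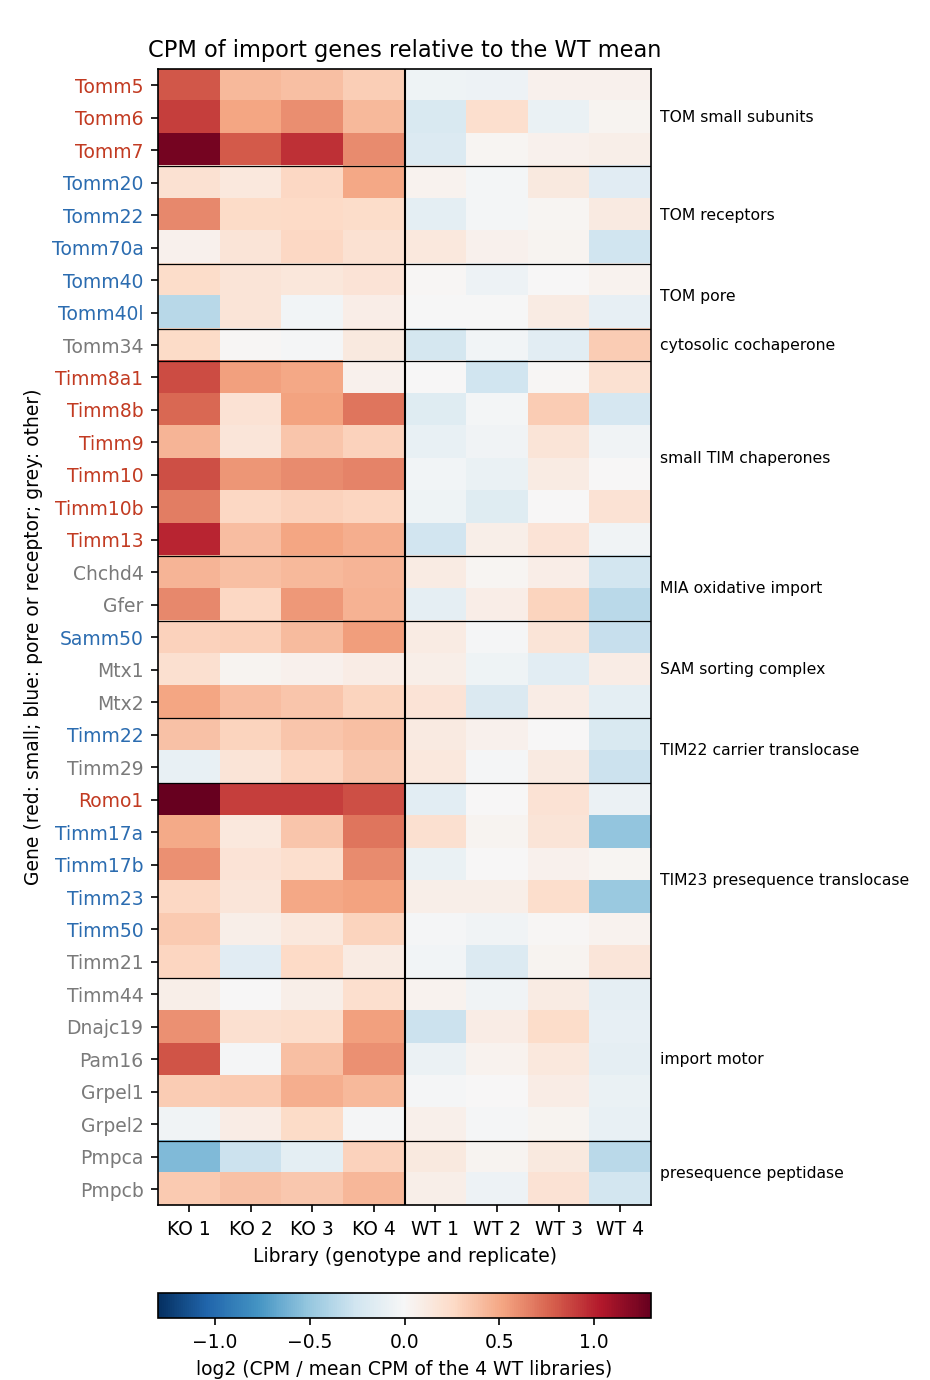
Each cell is the CPM (counts scaled to a fixed, TMM-adjusted library size) of a gene in 1 library over the mean of the 4 WT libraries, on a log2 scale, with genes in rows by role and the 4 KO libraries to the left of the 4 WT libraries. Romo1 and Tomm7 are the darkest rows, KO replicate 1 is the highest KO library in all 10 small subunits, and Pmpca is lower in KO replicates 1 to 3 than in WT replicates 1 to 3.

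Promoters of the members with the smallest p values are shown as a description of their sequence. The table of RefSeq promoters (GRCm38.p6, 250 bases before to 50 after a start site) matched 31 of the 35 members in 33 windows, and held none for Grpel2, Timm21, Tomm40l or Tomm7. The 3 lowest p values among the matched genes belonged to Romo1 (chr2:156143983-156144282, plus strand), Timm10 (chr2:84826771-84827070, plus strand) and Grpel1 (chr5:36464935-36465234, plus strand). Capitals mark matches to 3 words searched on both strands: the ETS family core CCGGAAG, an NRF1-like word (GCGCA and GCGC with any 1 base between them) and a YY1-like word AAGATGGC. These are binding words of factors known for nuclear genes of mitochondrial proteins.
Romo1: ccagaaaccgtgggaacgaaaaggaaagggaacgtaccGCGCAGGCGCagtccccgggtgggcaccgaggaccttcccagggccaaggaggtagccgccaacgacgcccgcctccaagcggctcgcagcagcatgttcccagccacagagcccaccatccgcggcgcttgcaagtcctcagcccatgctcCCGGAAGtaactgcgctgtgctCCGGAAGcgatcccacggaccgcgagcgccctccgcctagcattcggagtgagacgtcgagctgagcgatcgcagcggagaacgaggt
Timm10: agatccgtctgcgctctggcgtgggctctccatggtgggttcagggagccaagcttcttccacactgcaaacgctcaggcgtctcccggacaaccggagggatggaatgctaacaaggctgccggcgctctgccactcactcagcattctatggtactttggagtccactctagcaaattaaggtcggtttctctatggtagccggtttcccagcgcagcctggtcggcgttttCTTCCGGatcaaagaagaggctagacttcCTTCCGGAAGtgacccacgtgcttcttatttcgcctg
Grpel1: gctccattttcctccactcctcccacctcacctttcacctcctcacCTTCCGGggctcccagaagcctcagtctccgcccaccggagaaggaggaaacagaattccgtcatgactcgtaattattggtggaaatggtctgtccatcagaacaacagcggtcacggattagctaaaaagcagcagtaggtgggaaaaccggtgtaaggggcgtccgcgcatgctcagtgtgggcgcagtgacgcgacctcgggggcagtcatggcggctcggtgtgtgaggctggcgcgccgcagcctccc
The Romo1 window held 3 matches, an NRF1-like word far upstream and a pair of ETS words nearer the start. Timm10 also had 3 matches, all ETS words, of which a pair overlap on opposite strands, and Grpel1 had 1, an ETS word on the reverse strand. The ETS word stood in 15 of the 33 member windows (45.5%) and in 8.86% of all 32851 promoter windows. The NRF1-like word stood in 5 (15.2%, against 4.60% of all windows) and the YY1-like word in 2 (6.06%, against 2.75%). The ETS word was found for 4 of 9 small subunits and 3 of 10 pore and receptor subunits with a promoter entry. A match describes letters and is no evidence of binding. The set of all windows was not matched to the members for base composition, and a link between matches and levels was not tested.

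The 3 small TOM subunits, Tomm5, Tomm6 and Tomm7, assemble around the pore and tune its stability. Tomm7 (ENSMUSG00000028998, chromosome 5, 23838944 to 23844161, GRCm38) had 91.2, 67.1, 74.5 and 59.2 CPM in KO replicates 1 to 4, against 34.2, 39.4, 40.2 and 40.7 CPM in WT replicates 1 to 4. Its groups lay far apart (log2 fold change 0.92 with an SE of 0.14, adjusted p = 0.0714 by edgeR). Tomm5 (ENSMUSG00000078713, chromosome 4, 45105208 to 45108114) had 56.9, 43.7, 42.9 and 40.7 CPM in KO replicates 1 to 4, against 31.4, 31.2, 34.0 and 33.9 CPM in WT replicates 1 to 4. Again no library of one genotype reached the other's range, at a smaller distance (log2 fold change 0.50 with an SE of 0.12, adjusted p = 0.0956 by edgeR). Tomm6 (ENSMUSG00000033475, chromosome 17, 47686646 to 47688386) was counted least, with 9.80, 7.5, 8 and 7.05 CPM in KO replicates 1 to 4, against 4.58, 6.11, 4.93 and 5.37 CPM in WT replicates 1 to 4. These groups did not overlap either (log2 fold change 0.62 with an SE of 0.16, adjusted p = 0.102 by edgeR). Of Tomm6's 1131 exonic bases, 859 are shared with Gm21981, a gene on the same strand, so reads may have been lost or moved between them. DESeq2 called all 3 of these genes higher (3.90% of all genes) and limma-voom called Tomm5 and Tomm7 higher (2.41%).

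The TOM receptors capture precursors on the cytosolic face, Tomm20 and Tomm22 mainly those with presequences and Tomm70a carriers. Tomm22 had 69.6, 53.4, 54.0 and 53.2 CPM in KO replicates 1 to 4, against 41.2, 44.4, 45.8 and 48.9 CPM in WT replicates 1 to 4. Tomm20 had 83.4, 80.2, 87.6 and 103 CPM in KO replicates 1 to 4, against 74.8, 71.2, 79.2 and 65.6 CPM in WT replicates 1 to 4. Both were separated without overlap by small margins, Tomm22 with a log2 fold change of 0.35 (SE 0.12, adjusted p = 0.168 in edgeR) and Tomm20 with 0.28 (SE 0.12, adjusted p = 0.243). Tomm70a, at 57.7, 62.3, 67.2 and 63.8 CPM in KO replicates 1 to 4 and 61.1, 57.8, 57.0 and 46.4 CPM in WT replicates 1 to 4, overlapped between genotypes (log2 fold change 0.17, SE 0.11).

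The pore genes are Tomm40 and its paralogue Tomm40l. Tomm40, the barrel that conducts precursors, had 46.5, 44.2, 43.5 and 44.5 CPM in KO replicates 1 to 4, against 39.8, 37.5, 39.5 and 40.5 CPM in WT replicates 1 to 4. The difference was small but free of overlap (log2 fold change 0.18 with an SE of 0.09, adjusted p = 0.303 by edgeR). Tomm40l had 11.9, 17.1, 14.9 and 16.2 CPM in KO replicates 1 to 4, against 15.2, 15.2, 16.4 and 14.1 CPM in WT replicates 1 to 4. The log2 fold change of Tomm40l was -0.02 (SE 0.13), and its sign turned with the length trend removed (0.05). Tomm40l lies on chromosome 1 (171216011 to 171222514), 1.1 Mb from Kcnj9, and shares 3304 exonic bases with Nr1i3 on the opposite strand. Tomm34, a cytosolic cochaperone that keeps precursors unfolded, had 31.7, 27.0, 26.4 and 29.3 CPM in KO replicates 1 to 4, against 22.8, 26.1, 24.4 and 33.7 CPM in WT replicates 1 to 4 (log2 fold change 0.09, SE 0.14). In Tomm34 the highest value of all 8 libraries was that of WT replicate 4.

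All 6 small TIM chaperones were at higher mean levels in KO, each with an unadjusted edgeR p under 0.05 (9.59% of all genes). Their median log2 fold change was 0.53, and 0.42 with the exon length trend removed. Timm9 and Timm10 form the main chaperone ring, Timm8a1, Timm8b and Timm13 a second kind of ring, and Timm10b docks the chaperones to TIM22. Timm10 (ENSMUSG00000027076, chromosome 2, 84826997 to 84830213) had 24.0, 20, 20.6 and 21.0 CPM in KO replicates 1 to 4, against 13.1, 12.7, 14.5 and 13.5 CPM in WT replicates 1 to 4. The KO and WT values were tightly grouped and distinct (log2 fold change 0.67 with an SE of 0.11, adjusted p = 0.0714 by edgeR). Timm13 (ENSMUSG00000020219, chromosome 10, 80899450 to 80900969) had 126, 83.8, 90.6 and 88.4 CPM in KO replicates 1 to 4, against 53.3, 67.1, 72.0 and 61.6 CPM in WT replicates 1 to 4. KO replicate 1 stood well above the other KO libraries, and the groups did not overlap (log2 fold change 0.62 with an SE of 0.16, adjusted p = 0.0999 by edgeR). Timm8b had 79.0, 53.8, 67.8 and 76.4 CPM in KO replicates 1 to 4, against 42.3, 46.4, 59.1 and 40.5 CPM in WT replicates 1 to 4. Here KO replicate 2 lay within the WT range (log2 fold change 0.56 with an SE of 0.16, adjusted p = 0.123 by edgeR). Timm10b had 23.7, 18, 18.4 and 18.2 CPM in KO replicates 1 to 4, against 14.4, 13.4, 15 and 17 CPM in WT replicates 1 to 4, without overlap (log2 fold change 0.39, SE 0.13). Of its exonic bases, 376 are shared with Gm45799 on the same strand and 277 with Arfip2 on the other. Timm8a1, whose human counterpart is mutated in a deafness-dystonia syndrome, ranged from 5.42 to 9.41 CPM in KO and from 4.37 to 5.99 CPM in WT (log2 fold change 0.51, SE 0.19). Timm9 ranged from 15.6 to 19.1 CPM in KO and from 13.1 to 15.8 CPM in WT (log2 fold change 0.32, SE 0.12), so that both overlapped between genotypes. Timm10 was called by DESeq2 and limma-voom, and Timm13 and Timm8b by DESeq2. Of all genes, DESeq2 called 3.90% higher and limma-voom 2.41%.

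The MIA pathway pairs the receptor oxidoreductase Chchd4 with the sulfhydryl oxidase Gfer. Chchd4 had 24.4, 23.5, 24.0 and 24.4 CPM in KO replicates 1 to 4, against 19.3, 18.2, 19.0 and 15.2 CPM in WT replicates 1 to 4. The KO values were nearly equal and all above the WT values (log2 fold change 0.43 with an SE of 0.11, adjusted p = 0.0999 by edgeR). Gfer had 33.8, 26.3, 32.3 and 30 CPM in KO replicates 1 to 4, against 20.2, 23.3, 26.8 and 17.2 CPM in WT replicates 1 to 4. WT replicate 3 just exceeded KO replicate 2 (log2 fold change 0.49 with an SE of 0.15, adjusted p = 0.138 by edgeR). Chchd4 was called by DESeq2 and limma-voom.

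In the SAM complex, the barrel Samm50 and the metaxin Mtx2 were separated between genotypes and the metaxin Mtx1 was not. Samm50 had 212, 214, 230 and 252 CPM in KO replicates 1 to 4, against 186, 171, 194 and 140 CPM in WT replicates 1 to 4 (log2 fold change 0.39 with an SE of 0.14, adjusted p = 0.186 by edgeR). Mtx2 had 36.1, 33.6, 32.5 and 31.0 CPM in KO replicates 1 to 4, against 28.8, 22.3, 27.2 and 23.2 CPM in WT replicates 1 to 4 (log2 fold change 0.39 with an SE of 0.12, adjusted p = 0.130 by edgeR). Mtx1 had 24.5, 21.7, 22 and 22.7 CPM in KO replicates 1 to 4, against 22.4, 20.4, 19.2 and 22.7 CPM in WT replicates 1 to 4, which overlapped (log2 fold change 0.10, SE 0.10). Samm50 was lowest in WT replicate 4, the WT library with the smallest muscle share, and highest in KO replicate 4, the library with the largest.

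The TIM22 complex showed one separated and one overlapping gene. Timm22, its channel, had 33.3, 31.3, 32.9 and 33.7 CPM in KO replicates 1 to 4, against 27.8, 26.7, 25.7 and 22.3 CPM in WT replicates 1 to 4 (log2 fold change 0.36 with an SE of 0.10, adjusted p = 0.125 by edgeR). Among pores and receptors, 1 was called higher by DESeq2 (3.90% of all genes), and it was Timm22. Timm29, a metazoan subunit that links TIM22 to TOM, had 56.8, 68.5, 74.1 and 77.7 CPM in KO replicates 1 to 4, against 67.1, 60.3, 66.2 and 50.1 CPM in WT replicates 1 to 4, with KO replicate 1 inside the WT range (log2 fold change 0.19, SE 0.14).

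Within TIM23 the smallest subunit stood apart. Romo1, a tiny inner membrane protein of the translocase also known as a modulator of reactive oxygen species, lies on chromosome 2 (ENSMUSG00000067847, 156144039 to 156145797). It had 121, 92.3, 92.5 and 88.4 CPM in KO replicates 1 to 4, against 45.0, 49.5, 56.3 and 47.0 CPM in WT replicates 1 to 4. Every KO library far exceeded every WT library, and the difference was the highest of the 35 members (log2 fold change 0.99 with an SE of 0.13, adjusted p = 0.0675 by edgeR). Romo1 shares 148 of its 747 exonic bases with Nfs1 on the opposite strand. Timm17b had 40.8, 30.4, 31.4 and 41.2 CPM in KO replicates 1 to 4, against 25.4, 27.0, 28 and 27.4 CPM in WT replicates 1 to 4, without overlap (log2 fold change 0.41 with an SE of 0.13, adjusted p = 0.138 by edgeR). Its paralogue Timm17a had 143, 112, 130 and 165 CPM in KO replicates 1 to 4, against 117, 104, 114 and 71.3 CPM in WT replicates 1 to 4 (log2 fold change 0.43 with an SE of 0.18, adjusted p = 0.242 by edgeR). These overlapped through KO replicate 2, and WT replicate 4 lay far below the other WT libraries. Timm50, the receptor that takes presequences from TOM, had 50.2, 41.8, 43.5 and 48.5 CPM in KO replicates 1 to 4, against 39.2, 38.3, 39.9 and 41.0 CPM in WT replicates 1 to 4, a narrow separation (log2 fold change 0.22, SE 0.10). The channel Timm23 ranged from 134 to 173 CPM in KO and from 86.3 to 141 CPM in WT (log2 fold change 0.37, SE 0.17). Timm21, which connects the complex to TOM and the respiratory chain, ranged from 17.2 to 23.2 CPM in KO and from 16.9 to 21.2 CPM in WT (log2 fold change 0.13, SE 0.13).

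In the import motor, Grpel1, the nucleotide exchange factor of mitochondrial Hsp70, had 61.8, 62.0, 68.2 and 65.7 CPM in KO replicates 1 to 4, against 48.6, 49.1, 52.3 and 46.1 CPM in WT replicates 1 to 4. The groups were well separated (log2 fold change 0.39 with an SE of 0.10, adjusted p = 0.0914 by edgeR), and DESeq2 and limma-voom called the gene. Grpel1 shares 411 exonic bases with Tada2b on the opposite strand. Its paralogue Grpel2 ranged from 17.3 to 21.2 CPM in KO and from 16.7 to 18.7 CPM in WT, which overlapped (log2 fold change 0.08, SE 0.11). The J-like protein Pam16 and the J-domain protein Dnajc19, partners that control the motor's ATPase, both overlapped between genotypes. Pam16 had 48.2, 27.1, 35.9 and 41.3 CPM in KO replicates 1 to 4, against 26.0, 28.2, 30 and 25.3 CPM in WT replicates 1 to 4 (log2 fold change 0.48, SE 0.16), and 455 of its exonic bases are shared with Glis2 on the opposite strand. Dnajc19 had 51.9, 39.7, 40.2 and 49.5 CPM in KO replicates 1 to 4, against 28.2, 36.6, 40.5 and 31.8 CPM in WT replicates 1 to 4 (log2 fold change 0.40, SE 0.14). Timm44, which tethers Hsp70 to the channel, ranged from 65.7 to 76.5 CPM in KO and from 60.6 to 70.9 CPM in WT (log2 fold change 0.10, SE 0.10).

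The subunits of the presequence peptidase had fold changes of opposite sign. Pmpcb, the catalytic subunit, had 68.7, 70.8, 69.2 and 73.0 CPM in KO replicates 1 to 4, against 57.4, 51.8, 62.0 and 46.0 CPM in WT replicates 1 to 4, without overlap (log2 fold change 0.38 with an SE of 0.11, adjusted p = 0.137 by edgeR). Pmpca, the substrate-binding subunit, had 60.2, 73.9, 81.7 and 110 CPM in KO replicates 1 to 4, against 97.8, 91.7, 98.0 and 70.3 CPM in WT replicates 1 to 4 (log2 fold change -0.13 with an SE of 0.19, adjusted p = 0.760 by edgeR). KO replicates 1 to 3 lay below WT replicates 1 to 3, while replicate 4 of each genotype went the other way. Without both replicates 4 the log2 fold change of Pmpca was -0.41 (edgeR adjusted p = 0.0970), and with the muscle score as a covariate it was -0.45 and passed (edgeR adjusted p = 0.0458). Pmpca shares 874 exonic bases with Inpp5e on the opposite strand.

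**Figure D2:**
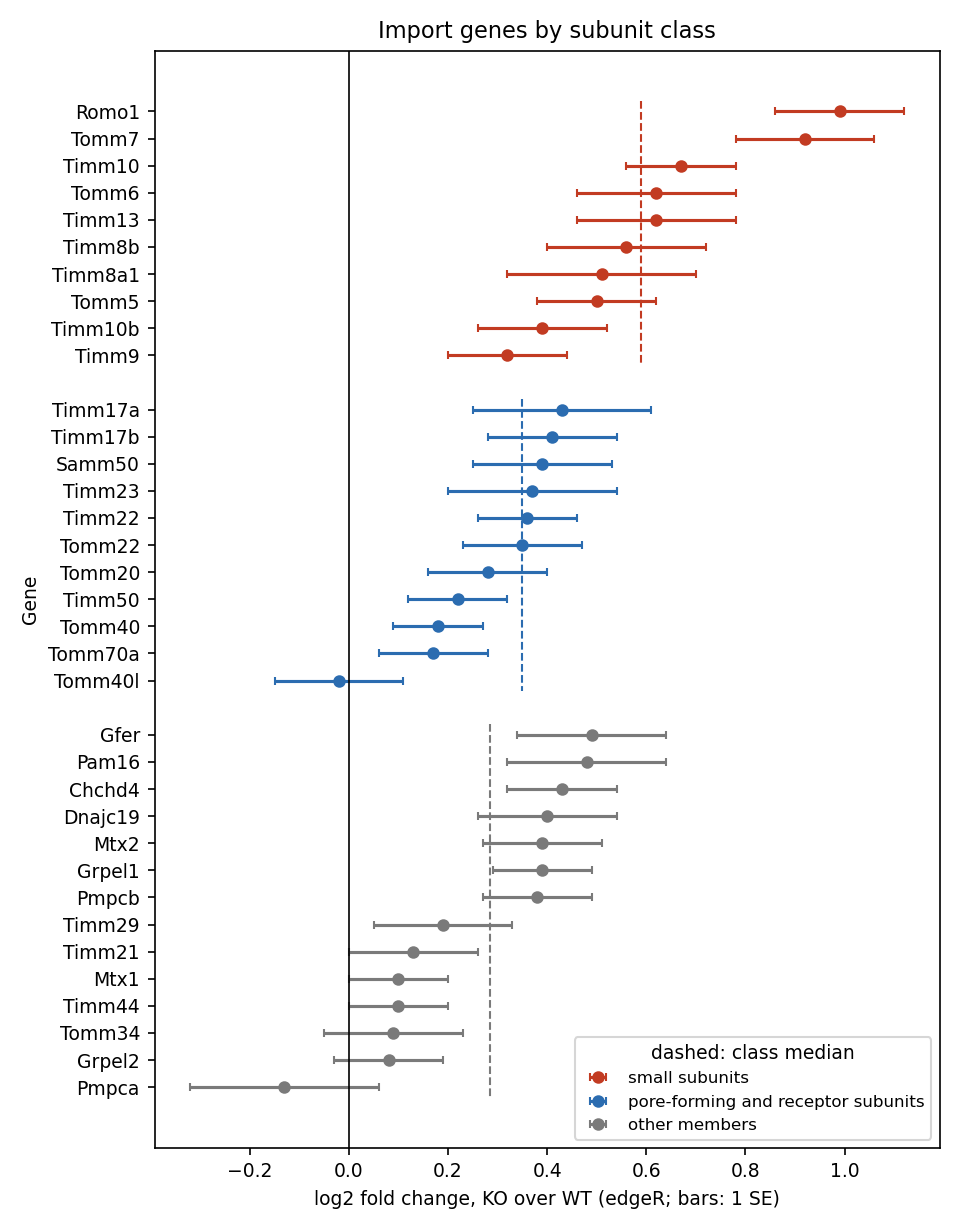
Points are edgeR log2 fold changes, KO over WT, with bars of 1 SE, and dashed lines are the median of each class of subunits (10 small, 11 pore-forming or receptor, 14 other). The small subunits run from 0.32 to 0.99, the pores and receptors from -0.02 to 0.43 and the others from -0.13 to 0.49.

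The small subunits had the highest median of the 3 classes, although the ranges of the classes overlapped: Timm9 (0.32) and Timm10b (0.39) lay below Timm17a (0.43) and Timm17b (0.41). The 10 small subunits, with 55 to 104 codons in their longest annotated coding part, had a median log2 fold change of 0.59, and all 10 were positive. The 11 pore-forming and receptor subunits, with 142 to 611 codons, had a median of 0.35, with 10 positive. The difference between the medians was 0.23 before rounding, 0.12 with the exon length trend removed and 0.48 with a muscle score as a covariate. The 14 other members had a median of 0.28. At an unadjusted edgeR p under 0.05 there were 10 of 10 small subunits, 6 of 11 pores and receptors and 7 of 14 others, all higher in KO, beside 9.59% of all genes. No overlap between genotypes was seen in 7 small subunits, 7 pores and receptors and 4 others, beside 7.33% of all genes. DESeq2 called 7 small subunits, 1 pore or receptor and 2 others (3.90% of all genes), and limma-voom 4, 0 and 2 in the same order (2.41%). At an edgeR adjusted p under 0.10, which 1.83% of all genes met with a higher level in KO, there were 5 small subunits, 0 pores and receptors and 2 others.

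Counted per library, the mean log2 CPM of the small subunits was 5.25, 4.85, 4.94 and 4.84 in KO replicates 1 to 4, against 4.26, 4.35, 4.48 and 4.39 in WT replicates 1 to 4. That of the pores and receptors was 5.96, 5.86, 5.94 and 6.07 in KO replicates 1 to 4, against 5.72, 5.68, 5.76 and 5.52 in WT replicates 1 to 4. Neither class overlapped between genotypes. The small minus pore and receptor difference in mean log2 CPM was -0.71, -1.01, -1.0 and -1.23 in KO replicates 1 to 4, against -1.46, -1.34, -1.28 and -1.12 in WT replicates 1 to 4. These values overlapped through the replicates 4, KO replicate 4 lying below WT replicate 4. Their SD over the 4 WT libraries was 0.14. Among KO libraries, replicate 1 was the highest in 10 of 10 small subunits, and replicate 4 in 6 of 11 pores and receptors. Among WT libraries, replicate 4 was the lowest in 7 of 11 pores and receptors and in 1 of 10 small subunits.

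**Figure D3:**
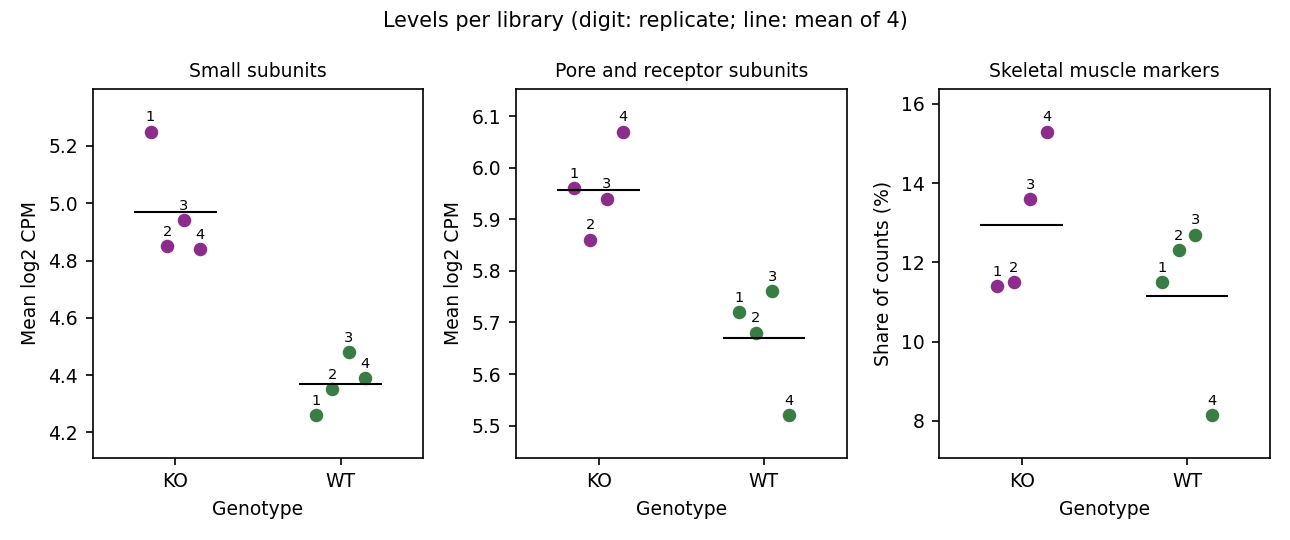
Points are libraries, numbered by replicate, with the mean of 4 as a line, for the mean log2 CPM of the 10 small subunits, that of the 11 pore-forming and receptor subunits, and the percentage of counts in 14 skeletal muscle markers. Pores and receptors are lowest in WT replicate 4 and highest in KO replicate 4, as is the muscle share (8.14% and 15.3%), while the small subunits are highest in KO replicate 1.

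Skeletal muscle is rich in mitochondria, and the sum of its markers was lowest in WT replicate 4 and highest in KO replicate 4. Of the 14 muscle markers 11 were at higher mean levels in KO (median log2 fold change 0.37), and their summed level ranged from 108719 to 183666 CPM in KO and from 69161 to 129344 CPM in WT. With a muscle score as a covariate, the median log2 fold change was 0.68 for the small subunits and 0.21 for the pores and receptors, and edgeR called 10 members higher, where it called 5.63% of all genes higher, and 1 lower, where it called 3.43%. That fit called 1582 genes in all, against 2 without the covariate. Without both replicates 4 the medians were 0.66 and 0.20, and Tomm7, Timm10 and Romo1 were called higher, as were 1.61% of all genes. Without WT replicate 4 alone, the difference between class medians was 0.35. Neutrophil markers (8 of 8 detected in every library and positive, median 0.53) summed to 770 to 7290 CPM in KO and 1529 to 5344 CPM in WT, and were highest in KO replicate 1. Adipocyte markers (5 of 5 detected and positive, median 0.68) summed to 36.8 to 330 CPM in KO and 26.2 to 126 CPM in WT, again highest in KO replicate 1. No marker of these 3 lists was called by edgeR. The part of muscle, neutrophil and adipocyte RNA in the import gene levels was not tested.

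**Figure D4:**
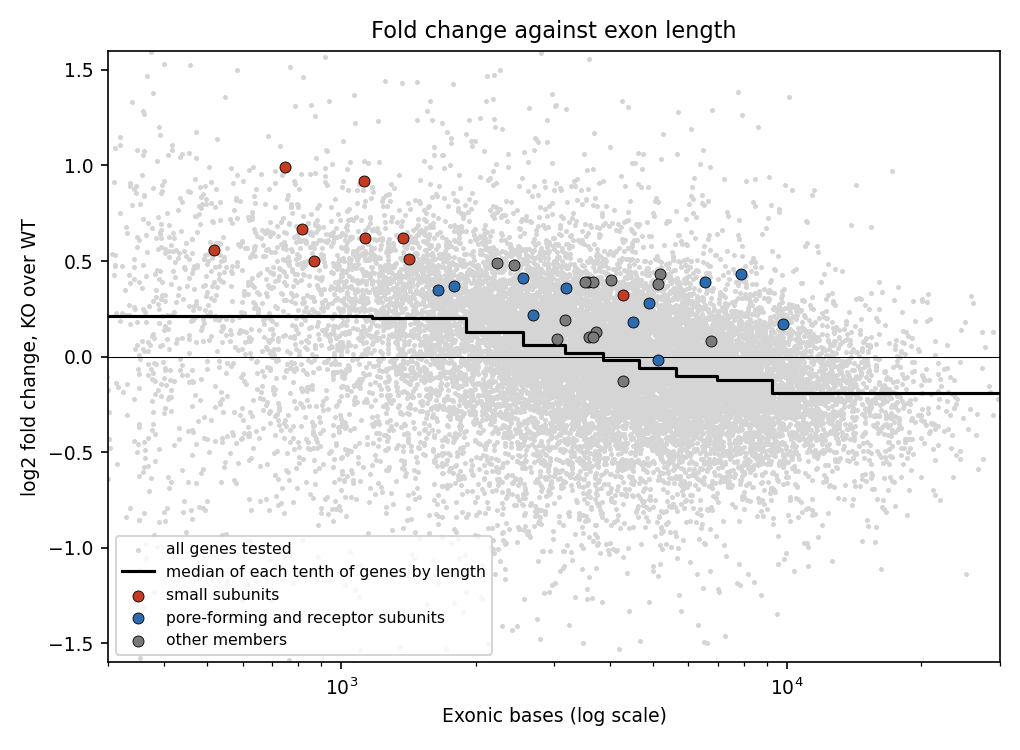
Each grey point is a tested gene, the black steps are the median log2 fold change (KO over WT) of each of 10 equal classes of genes by exonic length, and coloured points are the 35 members. The medians run from 0.21 in the shortest class to -0.19 in the longest, 34 of 35 members lie above the median of their own class, and axes are limited, so that genes outside the plotted ranges are not shown.

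Fold changes of all genes went with exon length, and most small subunits are short. The median log2 fold change was 0.21 in the lowest of 10 equal length classes (38 to 1166 exonic bases) and -0.19 in the highest (9242 to 123179). Small subunits had a median of 1128 exonic bases, and pores and receptors 4513. All 10 small subunits exceeded the median of their length class, by a median of 0.39, and all 11 pores and receptors exceeded theirs, by a median of 0.28. With the length trend removed from each library, the median was 0.45 for the small subunits and 0.34 for the pores and receptors, so that the difference between them was 0.12. That adjustment left 34 of 35 members positive and a median over all members of 0.37, against 0.03 over all genes. EdgeR then called 0 members, as without the adjustment, and 4 of the 17409 genes tested. The highest length-adjusted log2 fold changes were those of Romo1 (0.85), Tomm7 (0.78), Timm17a (0.58) and Timm10 (0.54). Exonic bases are the union over the isoforms of a gene, 7893 for Timm17a. Without length adjustment Timm17a was at 0.43, with overlapping genotypes, and at 0.20 without both replicates 4. Across the 35 members, Spearman's rho of log2 fold change was -0.62 with exonic bases and -0.77 with codons, -0.10 with the mean WT level and 0.10 with GC content. After length adjustment it was -0.25 with exonic bases and -0.60 with codons. Members share libraries, so these values are descriptions.

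Levels per length differed widely within complexes. TPM values (counts per exonic base, scaled to a fixed sum per library) set genes side by side, although exons of rare isoforms lengthen some genes. Timm8b had the highest mean in WT and Romo1 was next to it in KO: Timm8b averaged 320 ± 32.6 TPM in KO and 244 ± 31.6 TPM in WT, and Romo1 319 ± 60.0 TPM in KO and 179 ± 16.1 TPM in WT (SD, n = 4 each). Timm23 followed, at 209 ± 20.8 TPM in KO and 180 ± 22.4 TPM in WT (SD, n = 4 each), so that in WT it did not differ from Romo1 beyond their spread. The lowest levels were those of Tomm40l, at 7.11 ± 1.58 TPM in KO and 8 ± 0.350 TPM in WT, and Grpel2, at 6.78 ± 1.27 TPM in KO and 7.14 ± 0.406 TPM in WT (SD, n = 4 each). Among paralogues, Tomm40 exceeded Tomm40l (24.0 and 7.11 TPM in KO, 23.6 and 8 TPM in WT), and Grpel1 exceeded Grpel2 (44.1 and 6.78 TPM in KO, 37.5 and 7.14 TPM in WT). Of the 5135 exonic bases of Tomm40l, however, 3304 are shared with Nr1i3. If reads there were dropped, its TPM is too low, and its rank and its distance from Tomm40 are uncertain. The same holds for Tomm6, with 859 of 1131 exonic bases shared with Gm21981. Timm17a and Timm17b were closer, at 41.4 ± 1.61 and 33.6 ± 3.05 TPM in KO and 34.4 ± 5.03 and 28.5 ± 2.95 TPM in WT. They lay apart beyond their SDs in KO but not in WT. Before division by their 7893 and 2557 exonic bases, their means were 137 and 35.9 CPM in KO and 102 and 27 CPM in WT. On this scale 28 members were higher in KO and 7 lower, with a median log2 ratio of 0.22. The matching values over all genes were not computed on this scale.

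**Figure D5:**
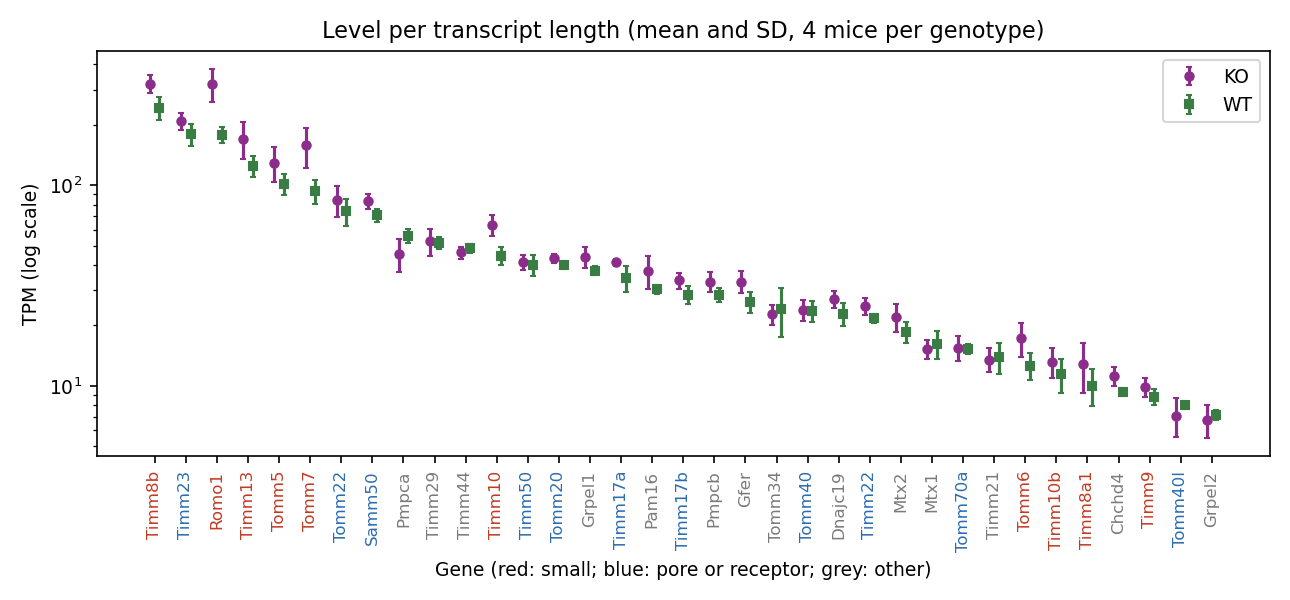
Points are the mean TPM of each member with bars of 1 SD (4 mice per genotype) on a log scale, KO circles left of WT squares, ordered by the WT mean. Timm8b, Timm23 and Romo1 head the order and Grpel2 and Tomm40l close it, and Romo1, Tomm7 and Timm10 show the widest gaps between KO and WT.

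Other genes of the pathway were mostly at higher mean levels in KO too. Of 22 further import genes 20 were tested, 15 higher and 5 lower in mean level (median log2 fold change 0.29). In edgeR 0 passed, and 8 had an unadjusted p under 0.05, all higher in KO (9.59% of all genes). DESeq2 called 5 higher (3.90%) and limma-voom 1 (2.41%). The 3 with the smallest p were Dnajc15, a paralogue of Dnajc19 (50.6 ± 6.02 CPM in KO and 33.9 ± 5.18 CPM in WT, log2 fold change 0.58), and the inner membrane peptidase genes Immp2l (0.65) and Immp1l (0.60). Hspa9, the mitochondrial Hsp70 that drives the motor, was at 409 ± 24.6 CPM in KO and 336 ± 65.8 CPM in WT (SD, n = 4 each, log2 fold change 0.28, edgeR adjusted p = 0.409). Timm8a2 and Tomm20l, with at most 5 and 2 counts in a library, were not tested.

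Small cysteine-rich proteins imported by the MIA pathway had higher mean levels in KO for 18 of the 18 genes listed (median log2 fold change 0.53). In edgeR 0 passed and 16 had an unadjusted p under 0.05 (9.59% of all genes). DESeq2 called 11 (3.90%) and limma-voom 8 (2.41%), and 15 had no overlap between genotypes (7.33%). The 3 with the smallest p were Cox6b1, a subunit of cytochrome oxidase, at 464 ± 62.5 CPM in KO and 247 ± 23.4 CPM in WT (SD, n = 4 each, log2 fold change 0.91, SE 0.15), Uqcrh of complex III (0.79) and the oxidase assembly factor Cmc2 (0.56). These genes too are short, with a median of 1651 exonic bases, and their median with the length trend removed was 0.41.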

How the data were processed

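Bulk RNA sequencing of femoral shaft bone gave 8 libraries, grouped by their titles as 4 KO and 4 WT. The authors deposited whole-number read counts per Ensembl gene. The submitters' processing notes name bcl2fastq 2.17, STAR 2.5.2b, featureCounts and Subread 1.5.2 with build mm10, without settings, and strand and multimapping rules are not stated there. Symbols, coordinates and exonic lengths came from GENCODE M21 (GRCm38, the same build), which matched 49056 of 49315 IDs.

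The genotypes were tested against each other in edgeR 4.0.16 (R 4.3.3): TMM, filterByExpr, robust quasi-likelihood test with group as the only term, Benjamini-Hochberg adjustment over 17450 genes and a threshold of 0.05. The SE is the log2 fold change divided by the root of the F statistic. Log2 CPM used a prior count of 2. Alternatives were DESeq2 1.42.0, limma-voom (limma 3.58.1) with quality weights, other scalings and filters, the replicate number as a block, a muscle score, loess removal (span 0.3) of the exon length and GC trends, and libraries left out. The pipeline was run on simulated counts with known fold changes as a check of the code. Its power at the fold changes of the members is not reported here. For 10 members, transcripts of other genes matched their coding part at 95% identity over at least 100 bases. In total such copies had at most 2.16% of a member's counts. Reads that matched a member and a copy alike may have been dropped, so this share does not show how many were lost. Genes that share exonic bases with a member, such as Gm21981 with Tomm6 and Gm45799 with Timm10b, were left out of this search. No pair of libraries was a repeat, with a chi-square of at least 42.8 per degree of freedom.

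The members, the gene lists, the classes of subunits and the settings were chosen with earlier results of these data known, except the TPM ratio, which was added after seeing the data shown here. All members are named. Counts per library are given for up to 3 members of each role with the smallest p and for those without overlap, and the others by range or fold change. In the further lists the 3 genes with the smallest p are named, and Hspa9 was chosen after its value was seen.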

Additional observations from a re-analysis of the deposited data

Results flagged for a closer look

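Of 70 groups of 4 values (35 members in each genotype), 4 held a value far from the other 3, where chance gives about 3.5, and each was the KO replicate 1 value, above the others. In KO replicate 1, Tomm22 was at 69.6 CPM, with the other KO libraries at 53.2 to 54.0 CPM. Timm10b was at 23.7 CPM there, with the others at 18 to 18.4 CPM. Timm13 was at 126 CPM, with the others at 83.8 to 90.6 CPM, and Romo1 at 121 CPM, with the others at 88.4 to 92.5 CPM. Neutrophil, adipocyte and osteoclast marker sums were highest in the same KO library, at 7290, 330 and 788 CPM, and their part in these values was not tested. Without KO replicate 1 the median log2 fold change was 0.48 for the small subunits and 0.31 for the pores and receptors.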

How the results depend on the processing

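Calls depended on the method. In place of 0, the number of members called higher was 10 with DESeq2 (3.90% of all genes), 6 with limma-voom (2.41%), 3 without a low-count filter (0.171%), 10 with the muscle covariate (5.63%), which also called 1 lower (Pmpca, 3.43%), 3 without both replicates 4 (1.61%) and 7 at a threshold of 0.10 (1.83%), so the share of all genes called moved as well. No member was called in any of the 8 edgeR fits that leave out 1 library. Each of these fits called only 2 to 4 of the 17633 to 17822 genes tested. The members' median (0.39) was 0.31 with limma-voom, 0.29 without TMM, 0.31 without both replicates 4, 0.22 on mean TPM and 0.30 to 0.43 with 1 library left out, the lowest without WT replicate 4. The class difference (0.23) was 0.48 with the muscle covariate, 0.46 without both replicates 4, 0.12 with the length trend removed, 0.17 with length and GC removed, and 0.17 to 0.35 with 1 library left out, the lowest without KO replicate 1 and the highest without WT replicate 4. The cause was not tested. Tomm40l (-0.02) was at 0.05 and 0.07 with length, or length and GC, removed, and ranged from -0.09 to 0.08 with 1 library left out. Without TMM, Tomm34 (-0.02), Mtx1 (-0.001), Timm44 (-0.0035) and Grpel2 (-0.02) turned negative, and on mean TPM Tomm34 (-0.09), Mtx1 (-0.07), Timm21 (-0.04), Timm44 (-0.07) and Grpel2 (-0.08) did. Of 735 settings of single members, 13 turned in sign and 40 gained a call.

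The labels give no link beyond the number between KO and WT libraries of the same replicate number. Their deviations from the group means correlated at -0.187, -0.166, -0.247 and -0.568. Deviations within a group of 4 constrain each other, and shared handling was not tested. With the replicate block the members' median was 0.39 and the class difference 0.24. That fit called 0 members and 1 of all 17450 genes. Each member had at least 143 counts per library, the lowest being that of Timm8a1.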
